A study of Mus musculus with 4 samples.

Results

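Respiratory complex I was described here through the nuclear genes whose symbols start with Nduf, in single-nucleus RNA sequencing of the mouse hypothalamus. A gene was included when it had at least 10 UMIs (unique molecular identifiers, each counting 1 captured RNA molecule) in every library. This left 47 of the 33696 genes in the files: 39 named as subunits (Ndufa, Ndufb, Ndufc, Ndufs and Ndufv) and 8 named as assembly factors (Ndufaf). Of the 49 Nduf genes listed, Ndufb11b had no UMI, and Ndufb4b had 9, 15, 12 and 19 UMIs and so fell just below the minimum. Ndufa4l2 lay just above it with 16, 13, 12 and 23 UMIs. Ndufb4 and Ndufb11 have these near-identical copies, so reads of each pair could be split or shared in counting and their values are uncertain.

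Complex I is the largest enzyme of the respiratory chain of mitochondria: it takes electrons from NADH, passes them along iron-sulfur clusters in a peripheral arm to ubiquinone, and pumps protons through a membrane arm. Most subunits are encoded in the nucleus, a few of the membrane arm are encoded in mitochondrial DNA, and dedicated assembly factors build the arms without remaining in the finished enzyme. Neurons depend heavily on it for ATP, and its loss in the brain causes severe neurological disease in mice and people.

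The mice were wild-type C57BL/6J, and the title of each library carries the words SPF (specific pathogen free) and Baseline. The 2 ImP libraries (ImP 3 and ImP 4) came from mice given imidazole propionate, a product of bacterial histidine breakdown, at 350 µg per day from an osmotic pump in the peritoneal cavity for 2 weeks, dissolved in sterile water with 1% DMSO. The 2 vehicle libraries (vehicle 1 and vehicle 2) came from mice given vehicle in the same way. The labels give neither age nor sex, and do not say how many mice stand behind a library, so the p-values below measure the spread between libraries.

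After filtering, 10917, 13023, 14757 and 15725 nuclei were kept for vehicle 1, vehicle 2, ImP 3 and ImP 4, with medians of 3757, 3179, 2852 and 2820 UMIs per nucleus. Values are listed in this order of libraries throughout, and levels are CPM, the UMIs of a gene for every 1000000 UMIs summed over the nuclei of a class. Nuclei were put in classes by marker genes, and those that passed the markers of more than 1 class were left out as likely doublets. Neurons made up 7297, 8544, 9164 and 9353 nuclei, and all 6 hypothalamic neuropeptide genes looked at (Agrp, Avp, Hcrt, Oxt, Pmch and Pomc) were present in them at 28.3 to 444 CPM. ImP 4 stood apart: 150 of its nuclei passed the markers of pituitary cells against 1 to 3 in the other libraries, and the pituitary hormone genes Gh, Prl and Cga summed to 1699 CPM in its neurons against 4.28 to 28.1. Pairs of libraries shared 39 to 76 barcodes.

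The promoters of 4 members are shown because they span the range of the results: Ndufb6 had the smallest p in neurons, Ndufa11 also lay higher in both ImP libraries, and Ndufaf5 and Ndufs4 overlapped between the groups. Each runs from 250 bases before to 50 bases after the start of the gene in RefSeq on GRCm38.p6, an older build than the GRCm39 of the counts, and 41 of the 47 members matched an entry. Capitals mark the motif found. In Ndufb6 (chr4:40279372-40279671, minus strand) it is the reverse complement of the ETS motif CCGGAAG. In Ndufa11 (chr17:56717512-56717811, plus strand) and Ndufaf5 (chr2:140170396-140170695, plus strand) it is the NRF1 motif GCGCATGCG, matched on both strands with a shift of 1 base, and in Ndufs4 (chr13:114388045-114388344, minus strand) the YY1 motif AAGATGGCG.
Ndufb6: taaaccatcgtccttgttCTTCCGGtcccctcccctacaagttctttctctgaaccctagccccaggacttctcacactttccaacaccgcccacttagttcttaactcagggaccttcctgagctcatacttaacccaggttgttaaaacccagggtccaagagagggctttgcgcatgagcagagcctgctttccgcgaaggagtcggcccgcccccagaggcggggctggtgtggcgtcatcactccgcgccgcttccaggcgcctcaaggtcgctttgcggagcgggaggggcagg
Ndufa11: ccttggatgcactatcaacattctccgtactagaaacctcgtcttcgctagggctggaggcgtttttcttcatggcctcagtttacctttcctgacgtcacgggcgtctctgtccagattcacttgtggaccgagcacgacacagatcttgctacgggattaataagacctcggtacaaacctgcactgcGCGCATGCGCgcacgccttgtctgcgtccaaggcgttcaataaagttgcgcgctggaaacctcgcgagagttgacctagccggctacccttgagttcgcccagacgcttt
Ndufaf5: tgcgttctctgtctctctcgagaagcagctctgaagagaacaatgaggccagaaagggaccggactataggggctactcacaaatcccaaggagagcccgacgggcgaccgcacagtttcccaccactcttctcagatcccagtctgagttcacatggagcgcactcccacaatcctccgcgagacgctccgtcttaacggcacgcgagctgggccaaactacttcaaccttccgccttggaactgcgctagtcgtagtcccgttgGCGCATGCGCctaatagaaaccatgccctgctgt
Ndufs4: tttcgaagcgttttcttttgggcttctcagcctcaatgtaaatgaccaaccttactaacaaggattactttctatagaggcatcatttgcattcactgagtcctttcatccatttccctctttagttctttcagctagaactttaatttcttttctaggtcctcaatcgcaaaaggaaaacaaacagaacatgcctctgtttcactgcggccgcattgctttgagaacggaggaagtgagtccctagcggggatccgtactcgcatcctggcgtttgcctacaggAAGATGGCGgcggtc

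Both strands were searched for 4 motifs. The NRF1 motif, bound by nuclear respiratory factor 1, stood in 4 of the 41 promoters (Ndufa11, Ndufa8, Ndufaf4 and Ndufaf5) and in 1.81% of all 27025 promoters of the table. The YY1 motif stood in 6 (Ndufa9, Ndufaf8, Ndufc1, Ndufs4, Ndufs6 and Ndufs7) and in 1.49% of all promoters, and the ETS motif in 6 (Ndufaf1, Ndufaf8, Ndufb6, Ndufb7, Ndufs3 and Ndufs8) and in 9.12%. No member held TCAAGGTCA, the motif of the estrogen-related receptors, which 0.407% of all promoters held. The ETS motif ends with the letters that open the YY1 motif, so the sites could overlap, but in Ndufaf8, the only member with both, they lay apart. Members with the NRF1 or YY1 motif included genes that overlapped between the groups in neurons (Ndufaf4, Ndufaf5, Ndufa9 and Ndufs4) and genes that did not (Ndufa8, Ndufa11, Ndufc1, Ndufs6 and Ndufs7).

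The first question was how the level of these genes in ImP libraries compared with that in vehicle libraries. In neurons the ImP libraries both exceeded the vehicle libraries in 37 of the 46 members tested and were both below them in 2, where 17.2% and 20.7% of all genes did. Those 37 were 35 subunits and 2 assembly factors. The summed level of the subunits was 1587, 1809, 2124 and 2249 CPM, a ratio of 1.29 of the ImP mean to the vehicle mean. The summed level of the 8 assembly factors was 324, 320, 324 and 330 CPM, a ratio of 1.02. Both ImP libraries lay above both vehicle libraries for the subunits, while the assembly factors overlapped.

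**Figure D1:**
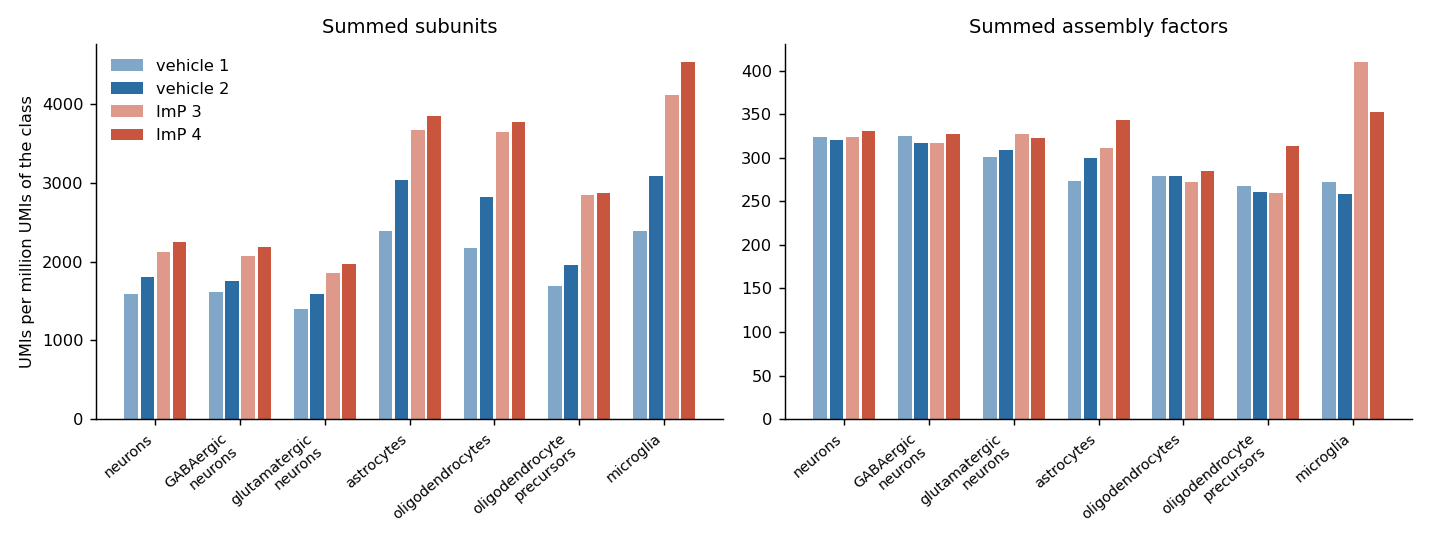
Summed level (CPM) of the 39 subunits, left, and the 8 assembly factors, right, with 1 bar per library in each of 7 marker-gated classes of nuclei. The subunit bars of both ImP libraries stand above both vehicle bars in each class, in neurons at 2124 and 2249 against 1587 and 1809, while the assembly factor bars of neurons lie between 320 and 330.

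No single member passed in neurons in the fit without a block. With the quasi-likelihood test of edgeR and Benjamini-Hochberg adjustment over 20257 genes, 0 of the 46 members tested had an adjusted p under 0.05, where 0.00494% of all genes did. At an unadjusted p under 0.05, 30 members were higher in ImP and none lower, where 5.94% of all genes were higher. The median log2 ratio of ImP over vehicle was 0.37 for the members and -0.01 for all genes tested. DESeq2, another count test, called 20 members, where it called 1.26% of all genes. Without ImP 3, edgeR called 14 members, where it called 2.52% of all genes, and without ImP 4, the library with the pituitary RNA, it called 1 (Ndufa4), where it called 0.211% of all genes. The median of the members was 0.35 without ImP 4 and 0.25 without vehicle 1. Names of 1 vehicle and 1 ImP library start with the same characters, whose meaning the labels do not give: between the libraries that share them, 43 of 47 members were higher in ImP 3 than in vehicle 1 (median 0.37) and 42 of 47 in ImP 4 than in vehicle 2 (median 0.26). With these characters as a block, edgeR called 27 of the 46 members in neurons, where it called 3.53% of all genes.

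**Figure D2:**
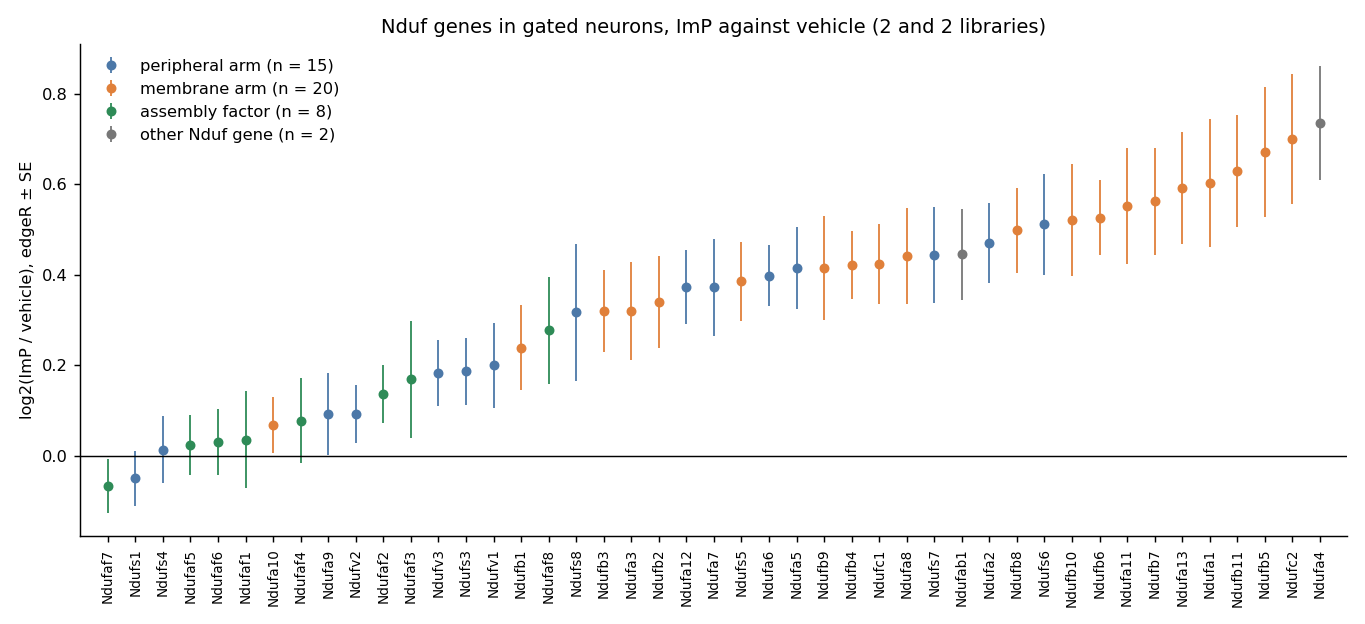
The log2 ratio of ImP over vehicle in gated neurons for the Nduf genes tested, 1 of them not shown, with the standard error of edgeR as bars, ordered by size and coloured by the place of the product in complex I. Membrane arm genes run from Ndufa10 at 0.07 to Ndufc2 at 0.70, and the assembly factors from Ndufaf7 at -0.07 to Ndufaf8 at 0.28.

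The 20 genes of the membrane arm, the part that sits in the inner membrane and moves protons, had a median log2 ratio of 0.47, and both ImP libraries were above both vehicle libraries for each of them. Ndufb6, a small accessory subunit of this arm whose promoter is shown above, was at 17.3, 18.3, 24.7 and 25.9 CPM (log2 ratio of 0.53 with an SE of 0.08, adjusted p = 0.373 by edgeR). Its ImP values lay well apart from its vehicle values, with little spread inside each group. Ndufb8, often used as a marker of complex I in immunoblots, was at 39.5, 45.8, 58.8 and 60.5 CPM (0.50, SE 0.09). Ndufb4, another subunit of this arm, was at 19.8, 18.6, 25.9 and 25.0 CPM (0.42, SE 0.08).

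Ndufc2, an accessory subunit of the proximal membrane arm, was at 92.6, 112, 145 and 184 CPM and had the largest log2 ratio of the arm, 0.70 (SE 0.14). Here vehicle 1 was lowest and ImP 4 highest, with wide gaps inside each group. Ndufa11, whose promoter holds the NRF1 motif, was at 27.4, 34.7, 43.0 and 47.2 CPM (0.55, SE 0.13). The smallest log2 ratio of the arm, 0.07 (SE 0.06), was that of Ndufa10, at 73.4, 71.7, 74.5 and 76.0 CPM.

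The 16 nuclear-encoded genes of the peripheral arm had a median log2 ratio of 0.28 in neurons. Both ImP libraries were above both vehicle libraries for 13 of them and below for 1. Within this arm the 7 core subunits, which carry the flavin, the iron-sulfur clusters and the ubiquinone site and are conserved from bacteria, had a median of 0.20. Ndufs7, which helps to form the ubiquinone site, had the largest log2 ratio of them, 0.44 (SE 0.11), at 27.5, 31.4, 37.0 and 42.3 CPM. Ndufs8, its iron-sulfur neighbour, was at 9.98, 12.8, 13.1 and 15.0 CPM (0.32, SE 0.15), so that vehicle 2 lay close to ImP 3.

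Ndufv1, the subunit that binds NADH and flavin, was at 26.4, 29.9, 31.1 and 32.9 CPM (0.20, SE 0.09). Ndufs3, another core subunit, was at 43.2, 45.0, 48.0 and 51.3 CPM (0.19, SE 0.07). For Ndufv1 the gap between vehicle 2 and ImP 3 was small against the whole range.

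Ndufv2, an iron-sulfur subunit beside Ndufv1, was at 71.8, 73.4, 75.7 and 77.5 CPM (0.09, SE 0.06). Ndufs1, the largest subunit of the arm and a carrier of iron-sulfur clusters, was at 95.5, 97.2, 93.3 and 90.9 CPM, the only subunit with both ImP libraries below both vehicle libraries (-0.05, SE 0.06). Ndufs4, an accessory subunit whose loss causes a Leigh-like disease in mice, overlapped at 152, 166, 154 and 163 CPM (0.01, SE 0.07).

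Ndufa6 and Ndufa2, accessory genes of the peripheral arm, were among the 6 members of smallest p. Ndufa6, which anchors the mitochondrial acyl carrier protein, was at 50.7, 52.4, 65.9 and 68.6 CPM (0.40, SE 0.07). Ndufa2, with a thioredoxin-like fold, was at 22.2, 25.0, 32.2 and 32.5 CPM (0.47, SE 0.09). In both, the groups did not overlap and the spread inside a group was small. Ndufa4, Ndufab1 and Ndufa4l2 were in neither list of arms. Ndufa4, first described with complex I and placed with complex IV in later work, was at 93.3, 121, 173 and 179 CPM, the largest log2 ratio of all members in neurons (0.73, SE 0.13, adjusted p = 0.373). Ndufab1, the acyl carrier protein itself, was at 41.0, 48.6, 59.0 and 61.8 CPM (0.45, SE 0.10). Ndufa4l2, the paralog of Ndufa4, had 9, 4, 6 and 11 UMIs in neurons and was not tested.

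**Figure D3:**
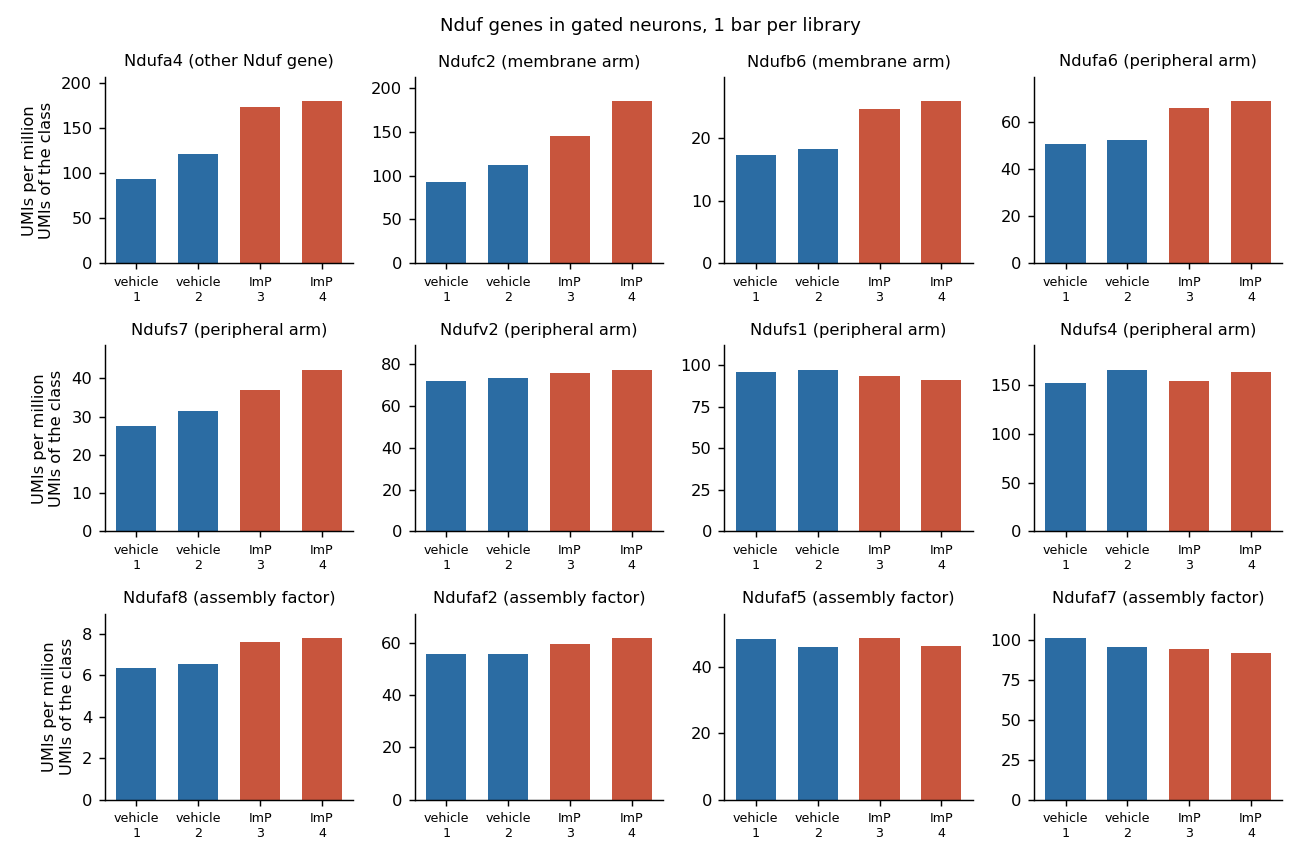
Level (CPM, axes from 0) of 12 Nduf genes in gated neurons, with 1 bar per library, vehicle in blue and ImP in red. Ndufa4 runs from 93.3 to 179 and Ndufb6 from 17.3 to 25.9 with both ImP bars above both vehicle bars, while Ndufs4 and Ndufaf5 overlap between the groups.

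The 8 assembly factors had a median log2 ratio of 0.06 in neurons, between -0.07 and 0.28, and none had an unadjusted p under 0.05. Ndufaf8 had the smallest p: 6.33, 6.53, 7.62 and 7.80 CPM (0.28, SE 0.12, adjusted p = 0.711 by edgeR). It is the partner of Ndufaf5, the enzyme that hydroxylates an arginine of Ndufs7, and Ndufaf5 itself overlapped at 48.4, 46.1, 48.8 and 46.3 CPM (0.02, SE 0.07). Ndufaf2, a paralog of the subunit Ndufa12 that acts late in assembly, was at 55.8, 55.7, 59.5 and 61.8 CPM (0.14, SE 0.06).

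Ndufaf3 was at 9.05, 10.9, 10.8 and 11.4 CPM (0.17, SE 0.13) and Ndufaf4, which works with it on the ubiquinone module, at 59.1, 57.9, 55.9 and 66.3 CPM (0.08, SE 0.09). The groups overlapped for both. Ndufaf7, a mitochondrial methyltransferase, was the only assembly factor with both ImP libraries below both vehicle libraries, at 102, 96.0, 94.6 and 91.9 CPM (-0.07, SE 0.06). Ndufaf1 and Ndufaf6 overlapped, at 10.6 to 11.8 and 33.1 to 34.9 CPM.

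The assembly factors took a smaller part of all Nduf UMIs in the ImP neurons. Their share was 17.0% (95% exact binomial interval 16.7 to 17.2%) in vehicle 1, 15.0% (14.8 to 15.3%) in vehicle 2, 13.2% (13.0 to 13.4%) in ImP 3 and 12.8% (12.6 to 13.0%) in ImP 4. The intervals cover counting error only. The difference of ImP minus vehicle means was -2.97 percentage points, and the exact two-sided permutation test over libraries gave p = 0.333, the smallest that 2 against 2 libraries allow. The share was lower in both ImP libraries in each of the other classes too, except microglia, where the values were 10.2, 7.71, 9.08 and 7.21%.

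The summed subunits were higher in both ImP libraries in the other classes too. In astrocytes they were at 2383, 3038, 3669 and 3841 CPM, in oligodendrocytes at 2171, 2816, 3642 and 3770 CPM, in oligodendrocyte precursors at 1694, 1951, 2848 and 2874 CPM, and in microglia at 2384, 3090, 4107 and 4533 CPM. Both ImP libraries were above both vehicle libraries in each class, but vehicle 1 and vehicle 2 also lay well apart, in astrocytes by as much as vehicle 2 and ImP 3. Medians over the members tested were 0.38 in GABAergic neurons, 0.36 in glutamatergic neurons, 0.45 in astrocytes, 0.47 in oligodendrocytes, 0.63 in oligodendrocyte precursors and 0.57 in microglia, where all genes tested had medians between -0.01 and 0.01. Without vehicle 1 the median was 0.24 in astrocytes and 0.28 in oligodendrocytes, without vehicle 2 it was 0.69 in astrocytes and 1.06 in microglia, and without ImP 4 it was between 0.31 and 0.62 in these classes. Medians of the assembly factors were 0.03, 0.19, 0.22, 0.10, 0.10 and 0.14 in these classes. Only 5 of the 8 were tested in precursors and 2 in microglia. Their summed level was higher in both ImP libraries in glutamatergic neurons (301, 309, 327 and 323 CPM) and astrocytes (273, 299, 311 and 343 CPM). It was so in microglia too (272, 258, 410 and 352 CPM), from 25 to 57 UMIs. In GABAergic neurons, oligodendrocytes and precursors the summed level overlapped.

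Oligodendrocyte precursors were the only class with members past the threshold in edgeR: 3 of 42 tested, all higher in ImP, where 0.24% of all genes passed. At an unadjusted p under 0.05, 20 were higher, where 7.41% of all genes were. Ndufa4 was at 117, 161, 296 and 278 CPM (log2 ratio 1.05, SE 0.19, adjusted p = 0.0362), from 54, 73, 145 and 126 UMIs. Ndufc2 was at 106, 119, 208 and 267 CPM (1.08, SE 0.20, adjusted p = 0.0362). Ndufab1 was at 32.4, 41.9, 91.9 and 106 CPM (1.41, SE 0.28, adjusted p = 0.0427), from as few as 15 UMIs in vehicle 1.

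In all 3 genes the ImP libraries were clearly above the vehicle libraries. No member passed under DESeq2, where 0.0799% of all genes did. A stricter marker gate left 33 members tested, nuclei of 2000 to 6000 UMIs 31, and nuclei with at most 1% mitochondrial UMIs 15. None of these passed, where 0.63%, 0.286% and 0% of all genes did. The calls also changed when 1 library was left out, which leaves 1 library in a group. This class held 182, 202, 242 and 220 nuclei.

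In the other classes edgeR called no member. The counts at an unadjusted p under 0.05, all higher in ImP, were 29 of 46 in GABAergic neurons, 23 of 46 in glutamatergic neurons, 24 of 46 in astrocytes, 24 of 46 in oligodendrocytes and 7 of 23 in microglia. Over all genes 6.03%, 4.71%, 7.76%, 7.98% and 5.9% were higher at this level, and 0.0241%, 0.0211%, 0%, 0% and 0.0291% passed the adjusted threshold. DESeq2 called 5, 2, 1, 2 and 0 members in these classes, where it called 0.481%, 0.0563%, 0.0961%, 0.0664% and 0% of all genes. In all nuclei together it called 23 members and 1.76% of all genes. There edgeR called 0 of 47 (0.0047% of all genes), with 33 at an unadjusted p under 0.05 (6.95% of all genes). Without ImP 4, edgeR called 12 members in all nuclei and 0.722% of all genes. Without vehicle 2 it called 9 members in glutamatergic neurons, 8 in astrocytes and 1 in microglia, where 1.69%, 3.4% and 0.653% of all genes passed. Without ImP 3 it called 11, 3, 4, 5 and 0 in the same classes as above, where 2.15%, 0.464%, 1.5%, 3.43% and 0.494% of all genes passed. Without ImP 4 it called 2, 3, 0, 0 and 0, where 0.358%, 0.558%, 0.025%, 0.024% and 0.165% passed.

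In all nuclei, both ImP libraries were above both vehicle libraries for 39 members and below for 2, against 18.9% and 21.3% of all genes. The counts above and below were 35 and 2 in GABAergic neurons (17.3% and 20.1% of all genes), 35 and 0 in glutamatergic neurons (16.7% and 17.9%) and 29 and 3 in astrocytes (22.1% and 19.2%). They were 36 and 1 in oligodendrocytes (24.8% and 18.2%), 26 and 1 in oligodendrocyte precursors (20.7% and 19.1%) and 13 and 0 in microglia (19.3% and 20.4%). Ndufa4 or Ndufc2 had the smallest p in GABAergic neurons, glutamatergic neurons, astrocytes, oligodendrocytes and microglia. In GABAergic neurons Ndufa4 was at 95.9, 114, 171 and 166 CPM (0.69, SE 0.10, adjusted p = 0.0747), followed by Ndufa13 (0.72, SE 0.12), a membrane arm subunit also known as a cell death regulator, and Ndufc2 (0.70, SE 0.13). In glutamatergic neurons Ndufc2 was at 76.4, 92.1, 129 and 156 CPM (0.77, SE 0.13, adjusted p = 0.0885), followed by Ndufa4 (0.71, SE 0.14) and Ndufa13 (0.68, SE 0.15).

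In astrocytes Ndufa4 was at 184, 213, 327 and 388 CPM (0.85, SE 0.18, adjusted p = 0.123), followed by Ndufc2 (0.95, SE 0.22) and Ndufb5 (0.85, SE 0.19), another membrane arm subunit. The largest log2 ratio in astrocytes was that of the assembly factor Ndufaf8 (1.12, SE 0.40), from 9, 9, 21 and 24 UMIs. In oligodendrocytes Ndufa4 was at 177, 228, 370 and 396 CPM (0.91, SE 0.17, adjusted p = 0.323), followed by Ndufc2 (0.98, SE 0.20) and Ndufb5 (0.82, SE 0.20). In microglia, with 65 to 114 nuclei, the 3 were Ndufa4 (0.88, SE 0.30), Ndufb5 (1.03, SE 0.36) and Ndufs5 (1.23, SE 0.44), and Ndufa4 was at 141, 295, 475 and 360 CPM.

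The members with the lowest log2 ratios in astrocytes were Ndufaf6 (-0.46) and Ndufs1 (-0.31), in oligodendrocytes Ndufaf7 (-0.23), in GABAergic neurons Ndufaf3 (-0.20), and none had an unadjusted p under 0.05. Whether the difference between ImP and vehicle differed between classes was tested as an interaction. No member had an adjusted or unadjusted p under 0.05 between neurons and astrocytes, between neurons and oligodendrocytes, or between GABAergic and glutamatergic neurons in edgeR, where 0.31%, 0.177% and 0.0122% of all genes passed the adjusted threshold (0.155%, 0.162% and 0.0061% with a larger value in the first class, 0.155%, 0.0152% and 0.0061% with a smaller one). DESeq2 called none either. On counts simulated for neurons and astrocytes, this test recovered 27.8% of changes of 1 on the log2 scale and 57.7% of changes of 2. Both classes had the same mean profile there and the dispersion was fixed, so these rates are not its power in the data.

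Levels also differed between classes within each library. Against astrocytes, 41 of 47 members passed (edgeR with library as a block, adjusted p under 0.05), where 56.4% of all genes did: 37 were lower in neurons and 4 higher, where 24.6% of all genes were lower and 31.8% higher. Against oligodendrocytes 42 of 46 passed, where 64.1% of all genes did: 36 were lower and 6 higher, where 28.7% of all genes were lower and 35.4% higher. The median log2 ratios of neurons over glia were -0.67 and -0.79. Assembly factors were 3 of the 4 members higher in neurons than in astrocytes and 4 of the 6 higher than in oligodendrocytes. Others among them passed as lower in neurons. Against astrocytes these were Ndufaf8 (-0.74) and Ndufaf4 (-0.50), and against oligodendrocytes Ndufaf8 (-1.06), Ndufaf3 (-0.77) and Ndufaf2 (-0.24). The members furthest below were accessory subunits.

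Ndufaf5 was at 48.4, 46.1, 48.8 and 46.3 CPM in neurons, 30.5, 18.0, 31.3 and 25.4 CPM in astrocytes and 17.6, 22.0, 23.9 and 21.7 CPM in oligodendrocytes (log2 ratios of 0.95 and 1.13). Ndufaf6, a relative of phytoene synthases needed early in assembly, was at 33.1 to 34.9 CPM in neurons and 10.7 to 16.6 CPM in oligodendrocytes (1.31, SE 0.14), and did not pass against astrocytes. Ndufaf7 was higher in neurons than in astrocytes (0.67, SE 0.11), as were Ndufa10 and Ndufaf2 (both 0.33, SE 0.11). Against oligodendrocytes the others among the 4 largest were Ndufaf1 (0.65, SE 0.19), a core assembly factor of the membrane arm, and Ndufs4 (0.59, SE 0.09).

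On the other side, Ndufb7 was at 17.5, 21.8, 28.7 and 28.7 CPM in neurons, 49.4, 36.0, 65.1 and 60.5 CPM in astrocytes and 35.8, 46.2, 65.7 and 69.6 CPM in oligodendrocytes (-1.03 and -1.18). The next against astrocytes were Ndufs6 (-1.02), Ndufb8 (-0.96) and Ndufa7 (-0.94), and against oligodendrocytes Ndufb11 (-1.11), Ndufa3 (-1.10) and Ndufa13 (-1.09). All of these were lower in neurons in all 4 libraries.

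Depth differed between these classes: neurons had medians of 3595 to 4720 UMIs per nucleus, astrocytes 1408 to 1673 and oligodendrocytes 1297 to 1433. Among nuclei of 2000 to 6000 UMIs, 11 members passed against astrocytes and 7 against oligodendrocytes, with medians of -0.26 and -0.10, where 38.9% and 42.4% of all genes passed. These ranges left 128 to 222 astrocytes and 142 to 227 oligodendrocytes per library, and the part of depth in the contrasts was not tested. Ndufs6 then had a log2 ratio of 0.04 against astrocytes. Ndufaf7 (0.75), Ndufaf5 (0.57) and Ndufa10 (0.42) still passed as higher than in astrocytes, and Ndufaf6 (2.38), Ndufaf5 (1.04) and Ndufs4 (0.63) as higher than in oligodendrocytes. Nuclei with at most 1% mitochondrial UMIs gave 24 and 25 members, where 41.9% and 48.0% of all genes passed.

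Between the transmitter classes, 4 of 46 members passed, where 13.2% of all genes did. All 4 were higher in GABAergic neurons, where 5.08% of all genes were, and none in glutamatergic neurons, where 8.07% were. The 4 were Ndufb2 (log2 ratio 0.25, SE 0.07, adjusted p = 0.0119 by edgeR), Ndufa5 (0.24, SE 0.07), Ndufa8 (0.24, SE 0.08) and Ndufc2 (0.14, SE 0.04). Ndufb2 was at 41.9, 49.1, 54.4 and 57.1 CPM in GABAergic and 36.8, 35.4, 46.3 and 45.2 CPM in glutamatergic neurons, higher in 4 of 4 libraries. No member passed under DESeq2, among nuclei of 2000 to 6000 UMIs, or without ImP 4, where 5.92%, 10.1% and 11.3% of all genes did. Without vehicle 1, 2 members passed and without vehicle 2, 1 did, where 10.7% and 9.18% of all genes did. With library totals in place of TMM factors 13 members passed, where 2617 of 16390 genes did.

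Depth moved with the groups as well. In every library the summed Nduf level was lower in nuclei with more UMIs: in neurons of vehicle 1 it was 2910 CPM at 1000 to 2000 UMIs, 2464 at 2000 to 4000, 1909 at 4000 to 8000 and 1532 at 8000 to 16000. The ImP libraries had fewer UMIs per nucleus. Within each range the ImP libraries were still above the vehicle libraries: at 2000 to 4000 UMIs the neurons were at 2464, 2637, 2869 and 3055 CPM, a ratio of the means of 1.16, and at 8000 to 16000 UMIs at 1532, 1595, 1695 and 1785 CPM, a ratio of 1.11. The ratios were 1.33 at 1000 to 2000 UMIs and 1.14 at 4000 to 8000, beside 1.24 for all neurons together.

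**Figure D4:**
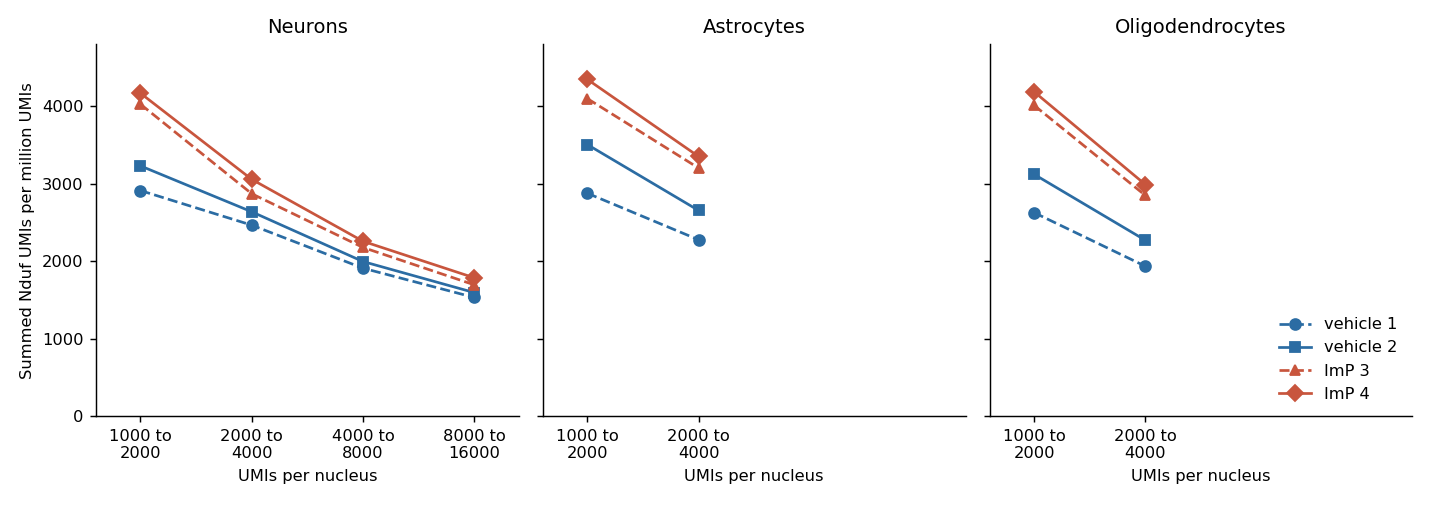
Summed level of the 47 Nduf genes (CPM) in nuclei of like depth, for neurons, astrocytes and oligodendrocytes, with 1 line per library. Each line falls with depth, and both ImP lines lie above both vehicle lines in every range. At 1000 to 2000 UMIs neurons, astrocytes and oligodendrocytes of vehicle 1 are at 2910, 2876 and 2626.

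At 2000 to 4000 UMIs astrocytes were at 2276, 2654, 3201 and 3350 CPM and oligodendrocytes at 1935, 2270, 2847 and 2988 CPM, beside the 2464 to 3055 CPM of neurons. In these bins the ratios of ImP to vehicle were 1.33 in astrocytes and 1.39 in oligodendrocytes.

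The size of the gene went with the difference between the groups. The span of a gene is its length from first to last base including introns, taken from GENCODE M21 on GRCm38. In neurons the 12 tested members under 5 kb had a median log2 ratio of 0.45, the 16 of 5 to 10 kb 0.42, the 9 of 10 to 20 kb 0.34 and the 7 of 20 to 50 kb 0.07. All genes tested in these ranges had medians of 0.06, 0.02, -0.01 and -0.03. Spearman's rho across genes between span and log2 ratio was -0.48 for the 46 members and -0.12 for all genes tested. It is a description, since genes of the same 4 libraries are not independent.

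**Figure D5:**
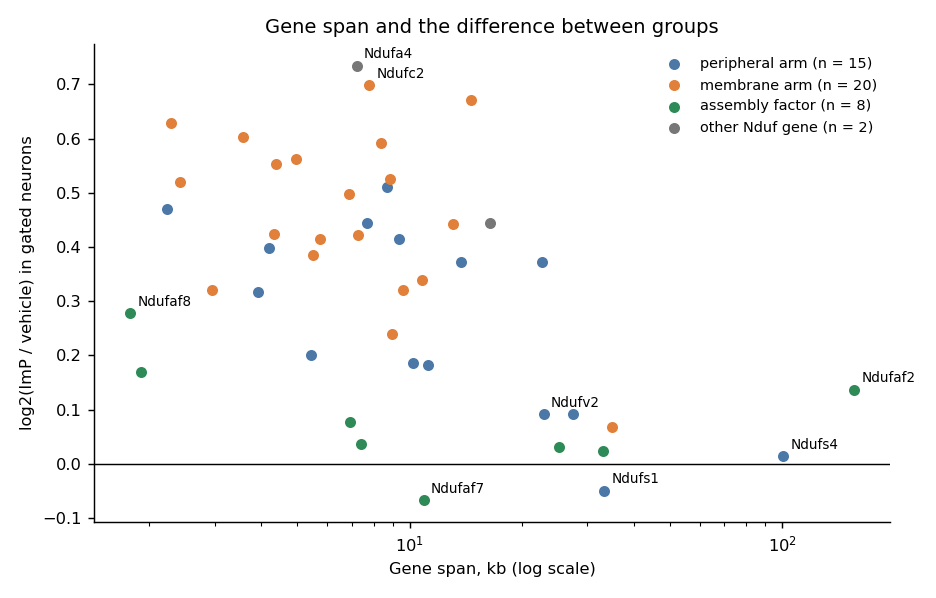
Gene span (kb, log scale) against the log2 ratio of ImP over vehicle in gated neurons, 1 point per Nduf gene tested with 1 not shown, coloured by the place of its product. The points higher than Ndufa12 (0.37) all have spans under 20 kb, and the 2 genes over 100 kb, Ndufs4 and Ndufaf2, lie at 0.01 and 0.14.

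Among the genes of short span, Ndufaf8 and Ndufaf3, both under 5 kb, had log2 ratios of 0.28 and 0.17, beside the median of 0.45 in that range. Of the 47 members, 23 share bases with another annotated gene, 19 of them with one on the other strand. Whether the counting used strand is not given in the sources used here, so reads of such partners cannot be told apart with certainty.

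The rest of the pathway was read from lists in neurons. The 7 complex I subunits encoded in mitochondrial DNA did not follow the nuclear subunits: they summed to 2518, 2969, 2781 and 2453 CPM, and 0 of 7 had an unadjusted p under 0.05 in edgeR (median log2 ratio -0.08). mt-Nd1, the subunit at the foot of the ubiquinone channel, was at 839, 958, 897 and 789 CPM. These transcripts are made outside the nucleus. Of 12 assembly factors of complex I with other names, 2 were higher and 5 lower in both ImP libraries (17.2% and 20.7% of all genes). Their median was -0.02, and none had an unadjusted p under 0.05 in edgeR. Examples are Ecsit, at 30.4, 27.3, 26.4 and 25.5 CPM, and Timmdc1, at 101, 107, 102 and 116 CPM, both needed for the membrane arm.

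In complex III, the next proton pump of the chain, 9 of 13 genes were higher in both ImP libraries and 1 was lower. Over all genes 17.2% were higher and 20.7% lower. The median of the 13 was 0.36. At an unadjusted p under 0.05 in edgeR 8 were higher, where 5.94% of all genes were. Uqcrb, a small subunit, was at 33.3, 38.8, 51.5 and 54.0 CPM (0.56, SE 0.10), while its core protein gene Uqcrc1 was at 30.4, 32.5, 30.6 and 33.9 CPM (0.05, SE 0.09). Complex II had a median of 0.12 over 8 genes, and Sdha, its flavin subunit, was at 85.9, 88.9, 86.2 and 83.2 CPM. Of 10 regulators of mitochondrial gene transcription none was higher in both ImP libraries and 2 were lower, where 17.2% and 20.7% of all genes were. Ppargc1a, the coactivator that drives mitochondrial biogenesis, was at 65.4, 65.9, 68.9 and 59.8 CPM, and Nrf1, the factor of the motif above, at 137, 137, 139 and 130 CPM.

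Other RNAs moved with the subunits across the 4 libraries. The 80 cytosolic ribosomal protein genes, short genes of another pathway, summed to 4921, 6088, 7496 and 7499 CPM in neurons. Of these, 78 of 78 tested were higher in both ImP libraries, where 17.2% of all genes were, with a median of 0.46. The 8 oligodendrocyte markers, which neurons should lack, summed to 243, 310, 402 and 378 CPM in neurons. The 6 transmitter markers of neurons summed to 121, 162, 201 and 227 CPM in oligodendrocytes. The 9 nuclear-retained RNAs, of which Snhg11 and Meg3 were also neuron markers, did not follow this order in neurons (65756, 66035, 62650 and 65582 CPM), nor did the 6 astrocyte markers (561, 541, 607 and 530 CPM). The part of RNA from outside the nuclei in the difference of the subunits was not tested.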

How the data were processed

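The deposited matrices hold UMI counts per gene and barcode, made by the authors with Cell Ranger 8.0.1 (genome GRCm39) according to the submitters' processing notes, where Seurat 5.0.0 is listed as well. Annotation release, intron handling and strand setting were not stated in these notes or the labels. Libraries used the 10x 3′ kit, with about 10000 nuclei loaded and at least 40000 read pairs per nucleus aimed for, per the labels. Totals were 48060194 to 51945297 UMIs per library.

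Nuclei with at least 500 genes and at most 5% mitochondrial UMIs were kept. A class needed 4 of 6 neuron, 3 of 6 astrocyte, 4 of 8 oligodendrocyte, 3 of 6 precursor or 4 of 8 microglia markers, and transmitter classes 2 UMIs of their own markers and none of the other's. These minimums were set after marker counts, not Nduf values, were seen. No doublet caller was run. Classes rest on these rebuilt gates, not on an annotation of the authors.

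UMIs of each class were added up within a library and tested with edgeR 4.0.16 in R 4.3.3 (quasi-likelihood, TMM, filterByExpr with a minimum count of 10, Benjamini-Hochberg over all genes of the class). DESeq2 1.42.0 was an alternative. Scripts were tested on simulated data: in neurons 79% of changes of 1 on the log2 scale were recovered. The simulation used a fixed dispersion not taken from the data, and the same mean profile for every library and class. Its recovery rates are therefore not the power of the tests on these data. The members and gene lists were chosen with earlier results of these data known. Named were members past an adjusted p of 0.05, otherwise the 6 (neurons) or 3 of smallest p in each direction, the core subunits, Ndufa4, the assembly factors and the 4 largest folds in class contrasts. Ndufa10, Ndufa11, Ndufc2 in neurons and the genes of other lists were picked after their values were seen, as were the alternatives for shares and depth ranges that leave out libraries or change gates. Spans came from GENCODE M21 and promoters from RefSeq, both on GRCm38. Values of 1 member are not reported here, though it stays in the counts, sums and medians.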

Additional observations from a re-analysis of the deposited data

How the results depend on the processing

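Of 186 alternative counts of members called, 128 stayed within 1.5 times the reported count and 58 did not. The cause was not tested. Many of the reported counts were 0, where such a ratio has no meaning, so these numbers do not measure how stable the results are. DESeq2 called 23 members in all nuclei, 20 in neurons, 5 in GABAergic neurons, 2 in glutamatergic neurons, 1 in astrocytes and 2 in oligodendrocytes. Over all genes it called 1.76%, 1.26%, 0.481%, 0.0563%, 0.0961% and 0.0664% there. It called 0 in oligodendrocyte precursors and 0 between the transmitter classes, where 0.0799% and 5.92% of all genes passed. With the library name prefix as a block the counts were 26 in all nuclei, 27 in neurons, 24 and 8 in the transmitter classes, 5 in astrocytes and 15 in oligodendrocytes, where 3.71%, 3.53%, 3.95%, 1.59%, 1.77% and 4.53% of all genes passed. Library totals gave 1 in GABAergic neurons, 1 in glutamatergic neurons and 13 between them. No filter on low counts gave 7, 5 and 7 there and 3 in astrocytes (0.554%, 0.703%, 8.92% and 0.819% of all genes). The stricter gate gave 2 in GABAergic neurons, 0 in precursors and 2 between the transmitter classes (0.0724%, 0.63% and 8.83% of all genes). Nuclei of 2000 to 6000 UMIs gave 1 in GABAergic neurons, 1 in astrocytes and 0 in precursors (0.0463%, 1.65% and 0.286% of all genes). They gave 11 for neurons against astrocytes, 7 against oligodendrocytes and 0 between the transmitter classes (38.9%, 42.4% and 10.1%). Without the deepest nuclei the counts were 1 in GABAergic and 1 in glutamatergic neurons and 0 between them. At most 1% mitochondrial UMIs gave 2, 2 and 0 there and 0 in precursors (0.0599%, 0.155%, 9.71% and 0% of all genes). This limit gave 24 for neurons against astrocytes and 25 against oligodendrocytes (41.9% and 48.0%).

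Leaving out 1 library at a time gave 0 to 12 members in all nuclei and 0 to 14 in neurons. It gave 0 to 11 in GABAergic neurons, 1 to 9 in glutamatergic neurons, 0 to 8 in astrocytes and 0 to 5 in oligodendrocytes. In precursors it gave 0 to 7 and in microglia 0 to 1. Between the transmitter classes, 2 members passed without vehicle 1, 1 without vehicle 2 and 0 without ImP 4, beside 4 with all libraries. The fits of ImP against vehicle without 1 library leave 1 library in a group. The share of all genes they called also changed with the library left out, as given above for neurons and other classes. Their counts of members therefore do not show a change of the members alone. Medians of the members over all alternatives ran from 0.25 to 0.47 in neurons, 0.24 to 0.69 in astrocytes and 0.28 to 0.68 in oligodendrocytes. They ran from 0.22 to 0.78 in precursors (0.22 at most 1% mitochondrial UMIs) and 0.47 to 1.06 in microglia. Among nuclei of 2000 to 6000 UMIs, Ndufs6 had a log2 ratio of 0.039 for neurons against astrocytes and Ndufc2 of -0.011 between the transmitter classes, both the other way. The share of assembly factors in microglia, ImP minus vehicle, was 0.433 percentage points without vehicle 1, 0.0989 without ImP 4 and -2.10 without vehicle 2. In neurons it was between -3.94 and -2.01 without 1 library. Microglia were not run at 2000 to 6000 UMIs or at most 1% mitochondrial UMIs, where a library held under 20 nuclei. Depth limits microglia and precursors most, with as few as 219 and 784 subunit UMIs in vehicle 1.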
